A study of Mus musculus with 8 samples.

Results

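The receptor chains for IL-3, IL-5 and GM-CSF and the paired receptors of the Lilrb4 locus were followed across mouse T-cell progenitors with and without CRISPR guides against both STAT5 genes. The set holds 7 genes, picked by symbol from the 24506 genes of the count table: Csf2rb, Csf2rb2, Csf2ra, Il3ra, Il5ra, Lilrb4a and Lilr4b. It was drawn up with the difference between sgStat5 and control cells after commitment already known for Csf2rb, Lilrb4a and Lilr4b. Earlier results on how that difference varied between the gates also helped choose the set. Both are therefore given as a description for all 7 genes, with no p-value. Their counts of calls are printed only beside those of all tested genes. All 7 passed the filter on low counts and were among the 13775 genes tested.

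RNA was sequenced in bulk from 8 libraries, 2 in each of 4 groups. The groups were post-commitment cells with Stat5 guides (post-commitment sgStat5), post-commitment cells with control guides, pre-commitment cells with Stat5 guides (pre-commitment sgStat5) and pre-commitment cells with control guides. All cells came from bone-marrow progenitors of B6 mice that carry Cas9, a Bcl2 transgene and a Bcl11b-mCherry reporter, so the controls share these too. A retrovirus brought in either control guides or guides to both genes, 3 per STAT5 gene. Infected progenitors spent 6 days on OP9-DLL1, a stromal line engineered to activate Notch, in medium with 10 ng/ml IL-7 and the same dose of Flt3 ligand. IL-3, IL-5 and GM-CSF are not among the named additions. Sorted cells were lineage-negative, positive for the infection marker and CD25-positive. The labels call mCherry-negative cells pre-commitment and mCherry-positive cells post-commitment, since Bcl11b is switched on at T-lineage commitment. The series text calls the reporter negative in both gates, but Bcl11b RNA was 797 and 415 CPM in post-commitment sgStat5 against 132 and 70.1 CPM in pre-commitment sgStat5 libraries, and 542 and 219 CPM in post-commitment control against 132 and 45.6 CPM in pre-commitment control libraries. CPM stands for counts scaled to library size, with TMM factors. Each sgStat5 library is a population of cells edited in culture, not a clone, and no source used here says what the control guides target.

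Total counts ran from 22458690 to 27169689 in post-commitment sgStat5, 26627248 to 31209177 in post-commitment control, 22146490 to 26989802 in pre-commitment sgStat5 and 25864734 to 31084744 in pre-commitment control libraries. Stat5a, one of the targeted genes, stood at 116 and 107 CPM in post-commitment sgStat5 against 257 and 238 CPM in post-commitment control libraries, and at 106 and 105 CPM in pre-commitment sgStat5 against 258 and 257 CPM in pre-commitment control libraries. Stat5b lay between 133 and 154 CPM in the 4 sgStat5 libraries and between 249 and 280 CPM in the 4 control libraries. All 20 early T-lineage markers listed for this work passed the filter, and Tcf7, which encodes the T-lineage factor TCF-1, lay between 1004 and 1449 CPM over the 8 libraries. Of 10 listed B-cell markers, Pax5 and Ms4a1 stayed under 10 counts in every library and 4 passed the filter. Among these 4, Cd79b lay between 5.55 and 14.6 CPM and Ebf1 between 0 and 5.31 CPM over the 8 libraries. The others, Cd22 and Vpreb1, reached at most 1.76 and 0.842 CPM. In bulk RNA, fewer cells that express a gene and less of its RNA per cell cannot be told apart.

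IL-3, IL-5 and GM-CSF each bind a specific alpha chain, which pairs with a shared beta chain, encoded by Csf2rb, that carries the signalling tail. Mice have a further beta chain, encoded by Csf2rb2, which serves only IL-3. These receptors signal through JAK2, which docks on the beta chain, and activate STAT5 among other factors. They are best known on myeloid progenitors, mast cells, basophils and eosinophils. Lilrb4a encodes gp49B, an inhibitory receptor whose tail carries motifs that recruit phosphatases, and its neighbour Lilr4b encodes gp49A, a paired receptor whose short tail lacks those motifs. Both are known on mast and myeloid cells, and gp49B also on activated lymphocytes.

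The members split into 2 patterns when STAT5 was targeted. For both beta chains and both Lilrb4-locus genes, the 2 sgStat5 libraries of a gate lay below its 2 control libraries. The share of all tested genes with such a gap was not counted, so the split is a description only. Of these members Lilrb4a alone passed before commitment with the replicate number as a block. It also passed with DESeq2 and with no filter on low counts, but not in the main edgeR fit. The 3 alpha chains did not share the lower level in sgStat5 cells. Their fold changes were between 0.48 and 0.63 on the log2 scale after commitment and between 0.00 and 0.31 before it. Csf2ra and Il5ra were higher in both sgStat5 libraries than in both control libraries after commitment, and the other alpha-chain comparisons overlapped. The median log2 fold change over the 7 members was -1.36 after commitment and -0.79 before it, beside medians over all tested genes of -0.02 and -0.00012. Since the set was chosen with the difference after commitment known, its lower median there was partly fixed in advance. The median before commitment may have been partly fixed too.

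**Figure D1:**
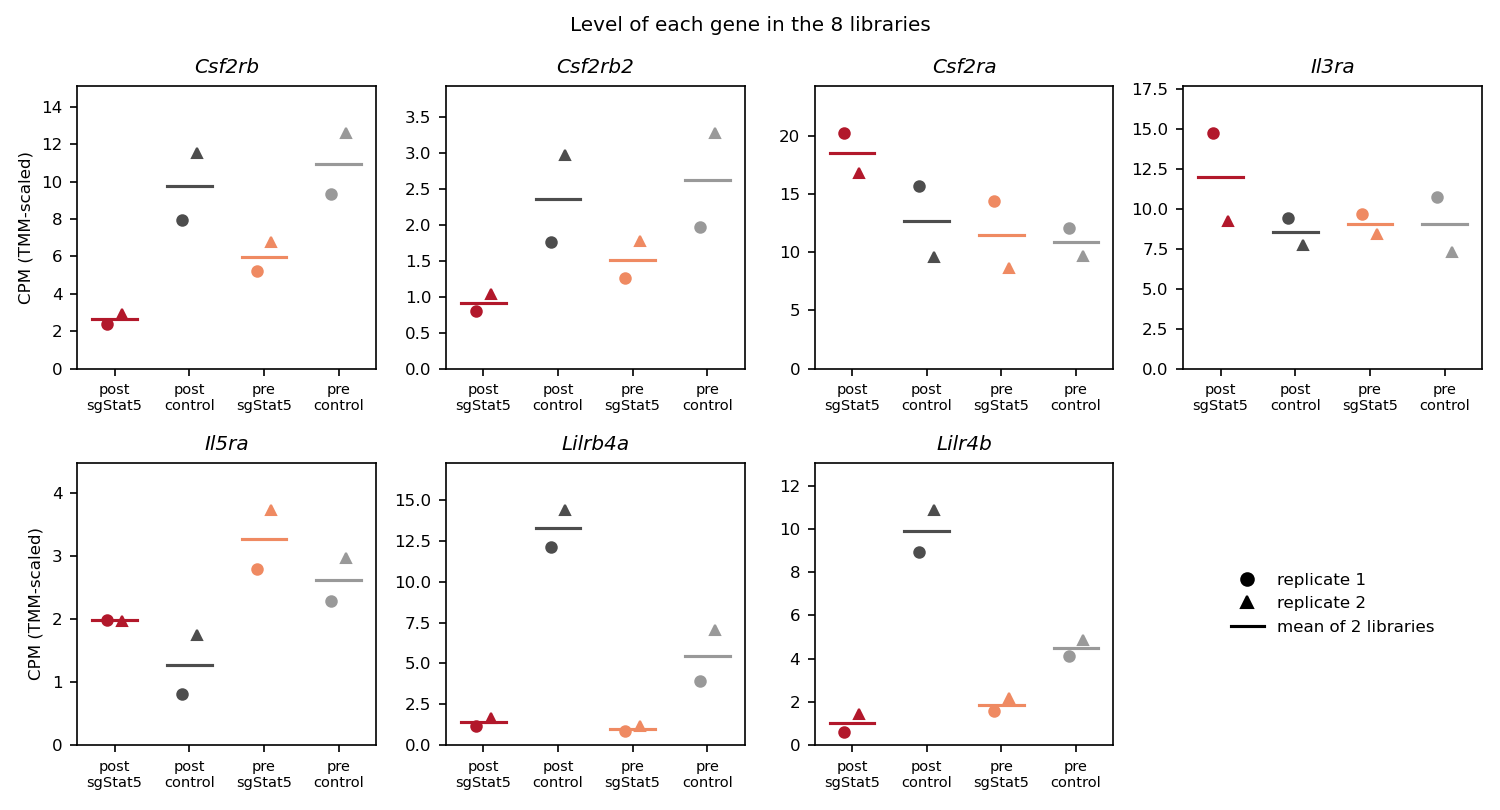
Level of each gene in CPM (y axis, from 0) in the 4 groups (x axis), with circles for replicate 1, triangles for replicate 2 and a line at the mean of 2 libraries. For Csf2rb, Csf2rb2, Lilrb4a and Lilr4b both sgStat5 libraries of a gate lie below both control libraries, whereas Csf2ra ranges from 8.61 to 20.2 CPM with its highest values in post-commitment sgStat5 cells.

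Csf2rb, the shared beta chain (chr15:78325990-78351001, plus strand, mm10), had 2.39 and 2.94 CPM in post-commitment sgStat5 libraries against 7.96 and 11.6 CPM in post-commitment control libraries. These rest on 54 and 82 counts in sgStat5 and 208 and 358 counts in control libraries. It had 5.21 and 6.76 CPM in pre-commitment sgStat5 libraries against 9.33 and 12.6 CPM in pre-commitment control libraries. Its lowest pair of libraries was thus post-commitment sgStat5, and the control libraries of the 2 gates overlapped. The mean was 2.66 ± 0.391 CPM in post-commitment sgStat5 and 9.76 ± 2.54 CPM in post-commitment control cells (SD, n = 2 each), a log2 fold change of -1.87 (SE 0.31). Before commitment the mean was 5.99 ± 1.09 CPM in sgStat5 and 10.96 ± 2.31 CPM in control cells (SD, n = 2 each). That log2 fold change of -0.87 (SE 0.30) did not pass (edgeR adjusted p = 0.611, 0.0830 with the replicate number as a block).

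Csf2rb2, the IL-3-specific beta chain, lies beside Csf2rb on the opposite strand (chr15:78282508-78305721). It had 0.796 and 1.04 CPM in post-commitment sgStat5 against 1.76 and 2.97 CPM in post-commitment control libraries. Before commitment it had 1.26 and 1.77 CPM in sgStat5 against 1.97 and 3.28 CPM in control libraries. The counts were small, 18 to 102 per library, and the groups did not overlap within either gate. The log2 fold changes were -1.36 (SE 0.55) after commitment and -0.79 (SE 0.53) before it, and the second did not pass (edgeR adjusted p = 0.942). Of the 50-base windows of the Csf2rb transcript, 18.9% occur unchanged in the Csf2rb2 transcript, so some reads can be counted at either gene. Csf2rb2 took 25 and 26.1% of the pair's counts in post-commitment sgStat5, 18.1 and 20.4% in post-commitment control, 19.4 and 20.8% in pre-commitment sgStat5 and 17.4 and 20.6% in pre-commitment control libraries. With the pair's counts summed, an alternative added after seeing the data, the log2 fold change was -1.76 after commitment and -0.86 before it.

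Csf2ra, the alpha chain of the GM-CSF receptor (chr19:61224402-61228418, minus strand), had 20.2 and 16.9 CPM in post-commitment sgStat5 against 15.7 and 9.62 CPM in post-commitment control libraries. Before commitment it had 14.4 and 8.61 CPM in sgStat5 against 12.0 and 9.64 CPM in control libraries. After commitment both sgStat5 libraries lay above both control libraries, and before it the groups overlapped. The log2 fold changes were 0.55 (SE 0.33) after commitment and 0.09 (SE 0.33) before it (edgeR adjusted p = 1.0). The smaller value turned sign without pre-commitment sgStat5 replicate 1 (-0.33) and without pre-commitment control replicate 2 (-0.06).

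Il3ra, the alpha chain of the IL-3 receptor (chr14:14346495-14355490, plus strand), had 14.8 and 9.25 CPM in post-commitment sgStat5 against 9.42 and 7.74 CPM in post-commitment control libraries, which overlap. Before commitment it had 9.66 and 8.46 CPM in sgStat5 against 10.8 and 7.33 CPM in control libraries, with the sgStat5 values inside the control range. The log2 fold changes were 0.48 (SE 0.30) after commitment and 0.00 (SE 0.30) before it, with a sign before commitment that turned in 5 alternatives. Il5ra, the alpha chain of the IL-5 receptor (chr6:106710379-106749037, minus strand), was scarce at 1.99 and 1.97 CPM in post-commitment sgStat5 against 0.804 and 1.74 CPM in post-commitment control libraries. It had 2.79 and 3.73 CPM in pre-commitment sgStat5 against 2.28 and 2.96 CPM in pre-commitment control libraries. Its log2 fold changes were 0.63 (SE 0.50) after commitment and 0.31 (SE 0.49) before it (edgeR adjusted p = 1.0).

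Lilrb4a, the inhibitory receptor gp49B (chr10:51490898-51496611, plus strand), was far lower in sgStat5 cells in both gates. It had 1.149 and 1.65 CPM in post-commitment sgStat5 against 12.1 and 14.4 CPM in post-commitment control libraries. Before commitment it had 0.854 and 1.145 CPM in sgStat5 against 3.90 and 7.04 CPM in control libraries. Every sgStat5 library of either gate lay below every control library of either gate. The mean was 1.40 ± 0.354 CPM in post-commitment sgStat5 and 13.3 ± 1.62 CPM in post-commitment control cells (SD, n = 2 each), a log2 fold change of -3.24 (SE 0.40), or 9.44-fold lower in sgStat5 cells. Before commitment it was 5.44-fold lower, a log2 fold change of -2.44 (SE 0.40). That comparison missed the threshold without the block (edgeR adjusted p = 0.0989) and passed with it (adjusted p = 0.0038). It follows from comparisons that helped choose the set, so this call is no independent evidence.

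Lilr4b, the paired receptor gp49A, lies 10.3 kb upstream of Lilrb4a on the same strand (chr10:51480612-51486329). It had 0.619 and 1.43 CPM in post-commitment sgStat5 against 8.96 and 10.9 CPM in post-commitment control libraries. Before commitment it had 1.57 and 2.18 CPM in sgStat5 against 4.13 and 4.89 CPM in control libraries. As with Lilrb4a, the 4 sgStat5 libraries lay below the 4 control libraries, and the lowest value rests on 14 counts. The log2 fold change was -3.26 (SE 0.46) after commitment, or 9.57-fold lower in sgStat5 cells. Before commitment it was -1.26 (SE 0.43) and did not pass (edgeR adjusted p = 0.611, 0.110 with the block).

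Reads of the Lilrb4 pair cannot be fully separated. Of the 50-base windows of the Lilrb4a transcript, 27.8% occur unchanged in the Lilr4b transcript. GENCODE also places a read-through gene model, Gm49339, over both genes, and an antisense gene, Gm40645, whose exons cover 103 bases of the 1381 exon bases of Lilrb4a. The labelled library kit does not mark strand and the file headers name no strand option, so reads from the antisense gene would be counted with Lilrb4a. With the 2 genes summed, again added after seeing the data, the log2 fold change was -3.25 (SE 0.36) after commitment and -1.79 (SE 0.35) before it (edgeR adjusted p = 0.162, 0.0031 with the block).

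Promoter windows of Lilr4b and Csf2rb2, whose values in both sgStat5 libraries of a gate lay below those in its control libraries, are shown beside that of Csf2ra, whose values did not. For Csf2rb2 that gap did not pass before commitment. The windows hold the 250 bases before the RefSeq start, on GRCm38.p6. RefSeq windows were at hand for 5 of the 7 members. They were lacking for Csf2rb and Lilrb4a, so whether these hold the motif is not known here. Capitals mark the letters TTCNNNGAA, the core that STAT factors bind, which reads alike on both strands. The Lilr4b window is chr10:51480362-51480611 (plus strand), that of Csf2rb2 chr15:78305722-78305971 (minus strand) and that of Csf2ra chr19:61228419-61228668 (minus strand).
Lilr4b: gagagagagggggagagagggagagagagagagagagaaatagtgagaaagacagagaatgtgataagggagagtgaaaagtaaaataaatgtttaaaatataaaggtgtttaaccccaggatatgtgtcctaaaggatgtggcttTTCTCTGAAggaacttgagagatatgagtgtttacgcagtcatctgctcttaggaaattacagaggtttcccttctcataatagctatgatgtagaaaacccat
Csf2rb2: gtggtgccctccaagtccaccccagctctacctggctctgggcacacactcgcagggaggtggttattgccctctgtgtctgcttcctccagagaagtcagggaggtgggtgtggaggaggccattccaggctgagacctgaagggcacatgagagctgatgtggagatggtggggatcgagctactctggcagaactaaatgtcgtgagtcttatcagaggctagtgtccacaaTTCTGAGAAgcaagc
Csf2ra: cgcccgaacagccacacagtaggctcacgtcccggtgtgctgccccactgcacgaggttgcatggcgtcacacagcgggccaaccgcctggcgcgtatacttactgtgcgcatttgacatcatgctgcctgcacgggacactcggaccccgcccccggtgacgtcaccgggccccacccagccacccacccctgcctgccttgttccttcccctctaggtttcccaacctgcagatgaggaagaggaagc

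The Lilr4b window held 1 such match, TTCTCTGAA, beginning 104 bases before the start, and the Csf2rb2 window held 1, TTCTGAGAA, beginning 15 bases before it. The windows of Csf2ra, Il3ra and Il5ra held 0. Of 32851 promoter windows of the same length, 7.02% held the motif. A match in letters is not a measured binding site, and no binding was measured in these files.

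**Figure D2:**
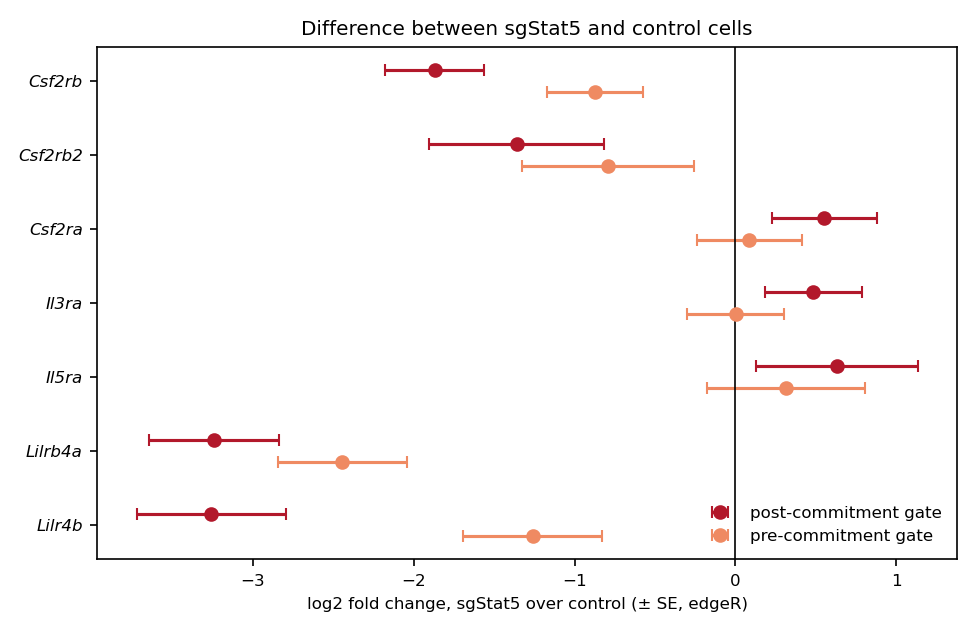
Log2 fold change of sgStat5 over control cells (x axis) for each gene (y axis), with the post-commitment gate above the pre-commitment gate and bars of 1 SE from edgeR. The beta chains and the Lilrb4-locus genes lie left of 0 in both gates, from -0.79 to -3.26, and the alpha chains lie at 0.00 to 0.63.

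Before commitment 0 of the 7 members passed without the block, where 0.269% of all tested genes passed (0.123% higher, 0.145% lower). With the block 1 member passed, beside 2.33% of all tested genes (1% higher, 1.33% lower). At an unadjusted p under 0.05 there were 887 genes in this comparison, and DESeq2 called 1 member, Lilrb4a. After commitment, in the comparison that chose the set, Csf2rb, Lilrb4a and Lilr4b lay past the threshold with and without the block, where 1.71% of all tested genes did without it (0.755% higher, 0.951% lower) and 8.22% with it (3.72% higher, 4.49% lower). Nothing is read from that count of 3. It moved to 0 without post-commitment sgStat5 replicate 1, without post-commitment control replicate 1 or without post-commitment control replicate 2. It was 1 without post-commitment sgStat5 replicate 2 or without either pre-commitment control library, 2 without either pre-commitment sgStat5 library, and 0 in a fit of the 2 groups alone. Csf2rb fell short of the threshold in each of the 8 fits that left out 1 library. The log2 fold changes moved less than the calls, from -3.53 to -3.01 for Lilrb4a, from -4.00 to -2.79 for Lilr4b and from -2.13 to -1.56 for Csf2rb over these 8 fits.

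The log2 fold change of sgStat5 over control was lower after commitment than before it for Csf2rb (by -1.0, SE 0.42), Csf2rb2 (by -0.57, SE 0.76), Lilrb4a (by -0.79, SE 0.54) and Lilr4b (by -2.0, SE 0.61), and higher for Csf2ra (by 0.47, SE 0.46), Il3ra (by 0.48, SE 0.43) and Il5ra (by 0.32, SE 0.70). These 7 differences are given as a description, since earlier results of this comparison helped choose the set. None lay past the threshold with or without the block, where 0% of all tested genes did. Over all tested genes 302 had an unadjusted p under 0.05. A larger fold in one gate is not established for any member.

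Between the gates, control cells had more of both Lilrb4-locus genes after commitment. Lilrb4a had 13.3 ± 1.62 CPM in post-commitment control and 5.47 ± 2.22 CPM in pre-commitment control cells (SD, n = 2 each), a log2 fold change of 1.28 (SE 0.37) that passed only with the block (edgeR adjusted p = 0.243 without and 0.0162 with it). For Lilr4b the values were 9.93 ± 1.38 CPM in post-commitment control and 4.51 ± 0.532 CPM in pre-commitment control cells (SD, n = 2 each), a log2 fold change of 1.14 (SE 0.42; edgeR adjusted p = 0.299 without and 0.0489 with the block). Log2 fold changes of Csf2rb (-0.17, SE 0.29), Csf2rb2 (-0.15, SE 0.53), Csf2ra (0.22, SE 0.33) and Il3ra (-0.08, SE 0.30) were smaller than their errors, and each turned sign with 1 library or another left out. Il5ra, at -1.04 (SE 0.50), missed the threshold in both fits. Without the block 0 members passed, beside 0.0145% of all tested genes (0.0145% higher, 0% lower). With it 2 members passed, beside 10.9% of all tested genes (6.64% higher, 4.3% lower). At an unadjusted p under 0.05 there were 2049 genes, and DESeq2 called 0 members.

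In sgStat5 cells Csf2rb and Csf2ra passed between the gates with the block. Whether the gates differed more in sgStat5 than in control cells is the same difference as above, which is only described and not established for any member. Csf2rb was lower after commitment, at 2.66 ± 0.391 CPM against 5.99 ± 1.09 CPM before it (SD, n = 2 each), a log2 fold change of -1.17 (SE 0.31) that passed only with the block (edgeR adjusted p = 0.0939 without and 0.0070 with it). Csf2ra was higher after commitment, at 18.5 ± 2.397 CPM against 11.5 ± 4.11 CPM before it, a log2 fold change of 0.69 (SE 0.33; edgeR adjusted p = 0.247 without and 0.0237 with the block). Lilrb4a (0.48, SE 0.40) and Lilr4b (-0.86, SE 0.44) missed the threshold in both fits, as did Csf2rb2 (-0.72, SE 0.54), Il3ra (0.41, SE 0.30) and Il5ra (-0.72, SE 0.50). Without the block 0 members passed, beside 0.973% of all tested genes (0.661% higher, 0.312% lower). With it 2 of 7 members passed, a share near that of all tested genes (22.8%, with 11.3% higher and 11.5% lower). At an unadjusted p under 0.05 there were 3305 genes, and DESeq2 called 1 member, Csf2rb.

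Markers of other cells also differed between the gates, in both guide arms. With the block, 3 of 10 tested mast-cell, basophil and eosinophil markers fell in sgStat5 cells (Kit, Mcpt8 and Siglecf) and 4 in control cells (the same 3 and Cpa3), and none rose in either arm. Of 17 tested myeloid and dendritic markers, 6 fell in each arm (Csf1r, Spi1, Cebpb, Mpo, Fcgr3 and Itgax) and 1 rose (Ly6c2). Of 10 tested genes typical of stromal cells, 3 rose in sgStat5 cells (Sparc, Thbs1 and Cxcl12) and 1 in control cells (Thbs1). The summed stromal level was 598 and 700 CPM in post-commitment sgStat5 against 192 and 373 CPM in pre-commitment sgStat5 libraries, and 580 and 698 CPM in post-commitment control against 211 and 406 CPM in pre-commitment control libraries. Their part in the gate values of the members was not tested.

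Levels were compared between genes on the deposited FPKM values, which are scaled to transcript length, with another transcript than in the count table for Lilr4b and Csf2rb2. In post-commitment control cells Lilrb4a (6.37 ± 0.752 FPKM), Lilr4b (5.44 ± 0.793 FPKM), Csf2ra (4.91 ± 1.69 FPKM) and Il3ra (4.43 ± 0.628 FPKM) stood highest, and their neighbours in this order did not differ beyond their spread. Csf2rb followed at 1.46 ± 0.375 FPKM, then Csf2rb2 at 0.368 ± 0.151 FPKM and Il5ra at 0.256 ± 0.133 FPKM (SD, n = 2 each). In post-commitment sgStat5 cells Csf2ra (7.50 ± 1.03 FPKM) and Il3ra (6.47 ± 2.15 FPKM) stood above Lilrb4a (0.700 ± 0.172 FPKM), Lilr4b (0.618 ± 0.325 FPKM), Csf2rb (0.416 ± 0.058 FPKM), Il5ra (0.416 ± 0.00566 FPKM) and Csf2rb2 (0.155 ± 0.0283 FPKM). After commitment the Lilrb4-locus genes were thus among the most abundant of the set in control cells and well under Csf2ra and Il3ra in sgStat5 cells. Before commitment they lay under both alpha chains in control cells too, with Lilrb4a at 2.65 ± 1.13 FPKM, Lilr4b at 2.55 ± 0.148 FPKM, Csf2ra at 4.22 ± 0.562 FPKM and Il3ra at 4.68 ± 1.16 FPKM (SD, n = 2 each).

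The ratio of Csf2rb to Csf2ra in FPKM was 0.0456 and 0.0674 in post-commitment sgStat5 against 0.196 and 0.465 in post-commitment control libraries. Before commitment it was 0.140 and 0.303 in sgStat5 against 0.299 and 0.505 in control libraries, which overlap. The ratio of Csf2rb to Il3ra was 0.0470 and 0.0923 in post-commitment sgStat5 against 0.246 and 0.434 in post-commitment control libraries. Before commitment it was 0.157 and 0.232 in sgStat5 against 0.251 and 0.4997 in control libraries, which do not overlap. The RNA of the shared beta chain was below that of both alpha chains in every library. These ratios describe RNA and say nothing of receptor on the cell surface.

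**Figure D3:**
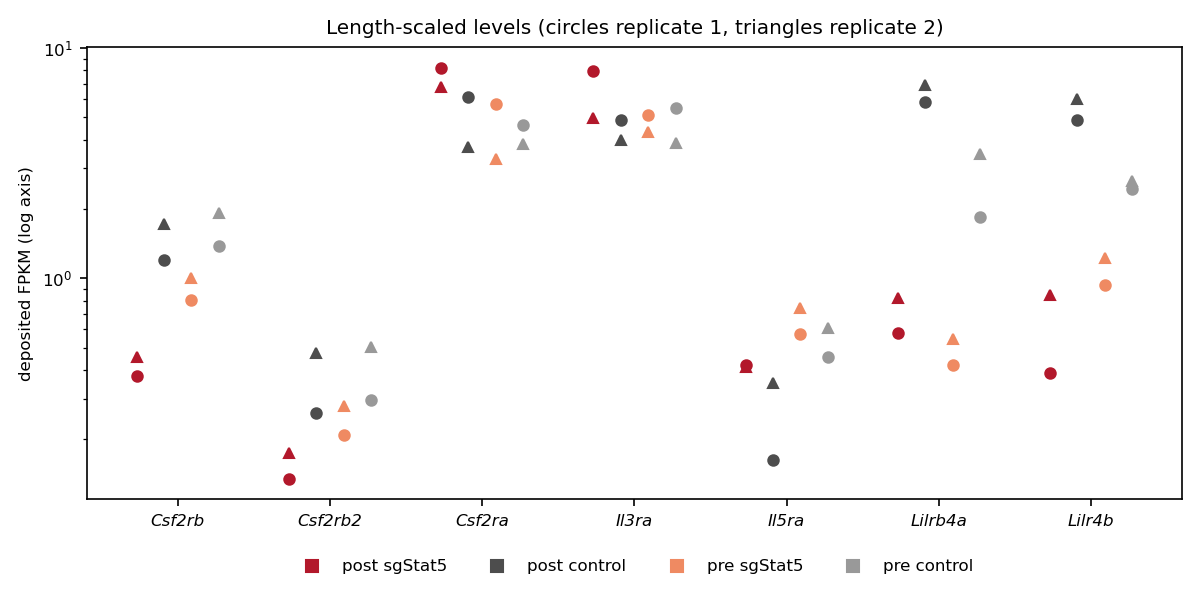
Deposited FPKM of each gene (y axis, log scale) by group, with circles for replicate 1 and triangles for replicate 2. In post-commitment control cells Lilrb4a and Lilr4b sit at the level of the alpha chains Csf2ra and Il3ra, and in post-commitment sgStat5 cells they sit between 0.389 and 0.848 FPKM.

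The other genes of the pathway were taken from lists written with earlier results of these data known. The ligands themselves were near absent. Il3 had 0 counts in all 8 libraries, which allows at most 0.0961 to 0.135 CPM (3 counts per library, counting error only). Csf2, which encodes GM-CSF, had 3 and 2 counts in the pre-commitment control libraries and 0 in the others. Il5 had 11 counts in post-commitment sgStat5 replicate 1, 7 in pre-commitment sgStat5 replicate 1, 2 in post-commitment control replicate 2 and 0 in the others.

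Of 20 genes that act downstream of the beta chain or of the Lilrb4a tail, all tested, 1 rose and 0 fell after commitment without the block. That gene was Stat3, another STAT factor, at 345 ± 9.78 CPM in sgStat5 and 238 ± 2.23 CPM in control cells (SD, n = 2 each; log2 fold change 0.53, edgeR adjusted p = 0.0216). With the block 3 rose and 4 fell. Those that rose were Stat3, the kinase Jak1 (0.29) and the feedback inhibitor Socs3 (1.30). Those that fell were Cish, a STAT5-induced feedback inhibitor (-3.00), the adaptor Gab2 (-0.68), the kinase subunit Pik3cd (-0.52) and Inpp5d (-0.31), which encodes SHIP-1, a phosphatase that inhibitory receptors recruit. Before commitment 0 passed without the block, and with it Stat3 (0.33) and Socs3 (0.95) rose and Cish (-2.37) and Socs1 (-0.89) fell. Jak2, Lyn and the phosphatases Ptpn6 and Ptpn11 passed in neither gate in either fit. The list's median log2 fold change was -0.08 after commitment and 0.03 before it, beside -0.02 and -0.00012 over all tested genes.

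Relatives of Lilrb4a were scarce or did not pass the test. Of 10 other listed genes of the LILR and PIR family in the count table, 7 stayed under 10 counts in every library. Only Pirb and Lair1 were tested, and neither passed in either gate in either fit. Lair1, an inhibitory receptor for collagens, had 38.4 ± 5.57 CPM in post-commitment sgStat5 and 37.4 ± 7.53 CPM in post-commitment control cells (SD, n = 2 each). Among 16 tested genes for other inhibitory receptors, 0 passed without the block in either gate. With it 1 rose after commitment, Pecam1 (0.36, edgeR adjusted p = 0.0259). The median of this list was 0.34 after commitment and 0.16 before it.

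Around Csf2rb the tested genes with a transcript within 200 kb, other than the beta chains, included 1 that passed in a fit, Il2rb. Of 14 other symbols placed there, 8 were tested, Csf2rb2 among them. Il2rb, the beta chain of the IL-2 and IL-15 receptors, starts 169 kb from Csf2rb. It had 5.39 and 4.59 CPM in post-commitment sgStat5 against 11.3 and 12.5 CPM in post-commitment control libraries, and 7.19 and 7.06 CPM in pre-commitment sgStat5 against 16.8 and 31.5 CPM in pre-commitment control libraries. Its log2 fold change was -1.25 after commitment (edgeR adjusted p = 0.121 without and 0.0237 with the block) and -1.76 before it (0.116 without and 0.0113 with the block). Ncf4, which encodes a subunit of the phagocyte oxidase and lies beyond Csf2rb2, had log2 fold changes of -0.34 and -0.31 and did not pass. Mpst, Tst, Kctd17, Ift27 and C1qtnf6 did not pass either, with log2 fold changes from -0.55 to 0.14 after commitment and -0.73 to -0.01 before it. Near the Lilrb4 pair the remaining 3 genes within 200 kb, Rfx6, Fam162b and Gprc6a, had 0 counts in every library.

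**Figure D4:**
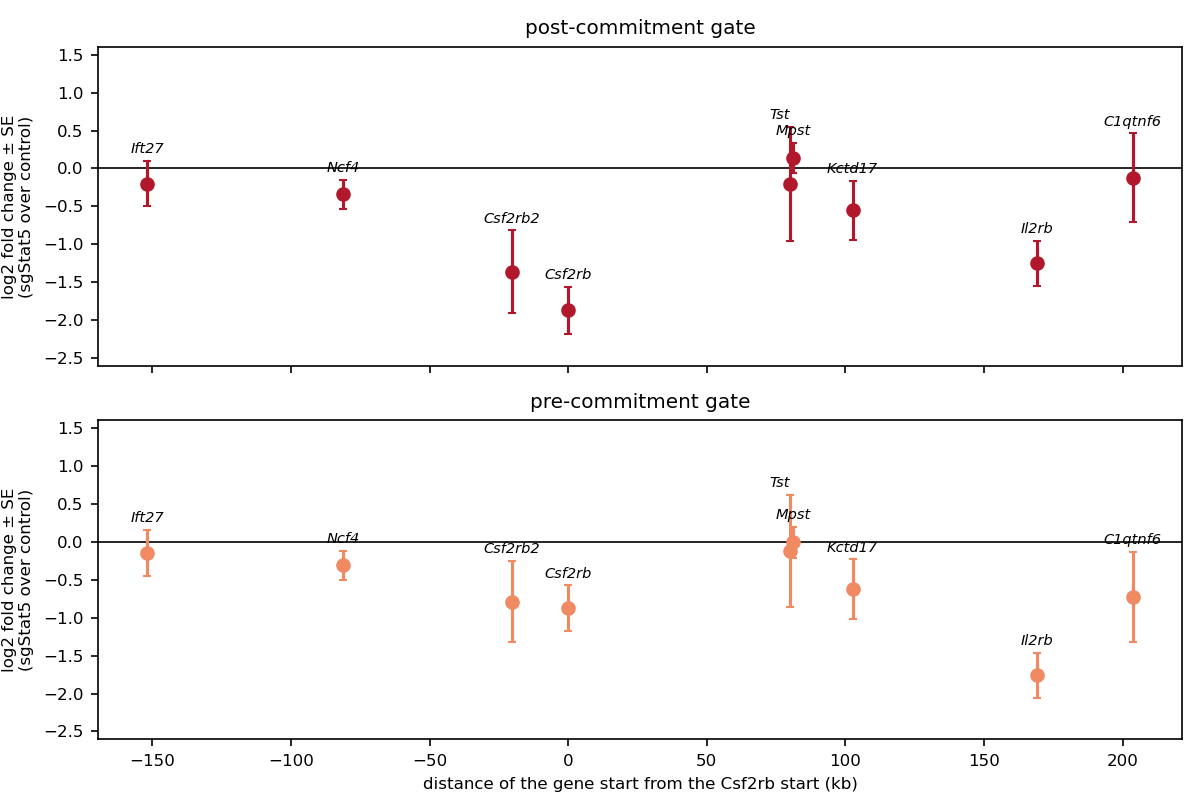
Log2 fold change of sgStat5 over control cells (y axis, bars of 1 SE) for tested genes whose transcript lies within 200 kb of that of Csf2rb, by the distance of each gene's start from the Csf2rb start in kb (x axis), with the post-commitment gate above the pre-commitment gate. Csf2rb, Csf2rb2 and Il2rb lie lowest after commitment, and of the genes between Csf2rb and Il2rb, Mpst lies at 0.14, Tst at -0.20 and Kctd17 at -0.55.

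Markers of the cell types best known for these receptors did not pass between sgStat5 and control cells. Of 19 mast-cell, basophil and eosinophil markers, 10 were tested and 0 passed in either gate in either fit. Their summed level was 720 and 656 CPM in post-commitment sgStat5 against 525 and 508 CPM in post-commitment control libraries, and 1267 and 861 CPM in pre-commitment sgStat5 against 1031 and 703 CPM in pre-commitment control libraries. Most of that sum was Kit and Cpa3, which early T progenitors also express. Of the other listed markers, Cma1 and Tpsab1 had 0 counts in every library, and Fcer1a, Ms4a2, Tpsb2 and Epx stayed under 10 counts. Others were present. Siglecf had 29.70 and 29.96 CPM in pre-commitment sgStat5 against 19.8 and 25.5 CPM in pre-commitment control libraries. After commitment Siglecf had 3.05 and 9.11 CPM in sgStat5 against 4.29 and 8.45 CPM in control libraries. Gata1 and Mitf were detected in every library, at up to 2.72 and 2.11 CPM. Of 21 myeloid and dendritic markers, 17 were tested and 0 passed in either gate in either fit, with Elane, Cd14 and Siglech under 10 counts throughout. Their sum was 42.3 and 74.6 CPM in post-commitment sgStat5 against 34.6 and 55.7 CPM in post-commitment control libraries, and 175 and 156 CPM in pre-commitment sgStat5 against 109 and 130 CPM in pre-commitment control libraries. For tested mast-cell, basophil and eosinophil markers the median log2 fold change was 0.05 after commitment and 0.32 before it. For tested myeloid and dendritic markers it was 0.46 after commitment and 0.36 before it. Single markers went either way. The basophil marker Mcpt8 had 12.8 and 15.1 CPM in pre-commitment sgStat5 against 20.9 and 24.0 CPM in pre-commitment control libraries (log2 fold change -0.69, SE 0.70), and its log2 fold change after commitment was -0.65 (SE 0.72). The myeloid factor Cebpa had a log2 fold change of -1.90 (SE 1.30) before commitment. In the same gate those of Mpo (1.15, SE 1.09) and Itgam (0.91, SE 0.38) were above 0. The part of these cells in the values of the members was not tested. Of 11 tested innate lymphoid and NK markers 0 passed without the block, and with it 1 rose after commitment (Rora, 1.13). Of 4 tested B-cell and 10 tested stromal markers 0 passed in either gate in either fit.

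**Figure D5:**
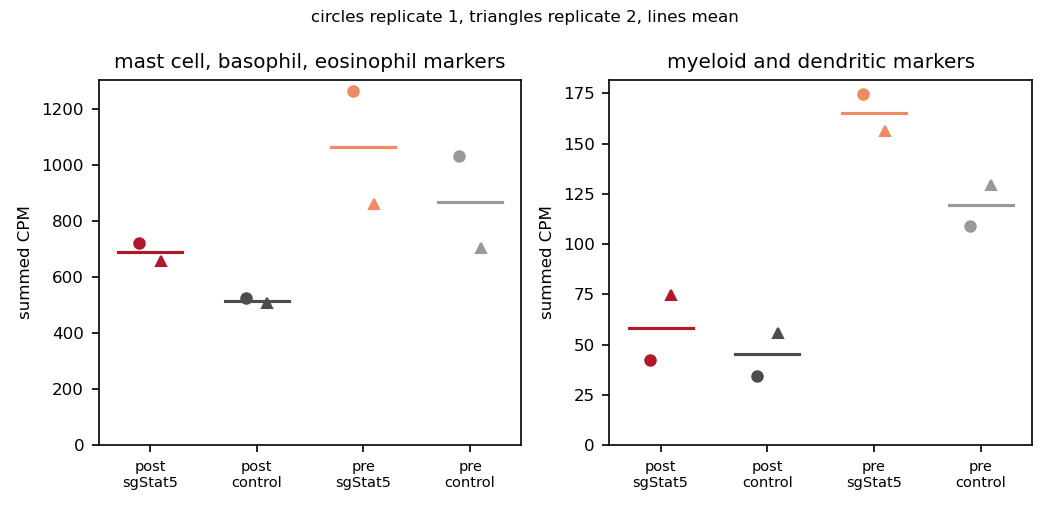
Summed CPM (y axis, from 0) of 19 mast-cell, basophil and eosinophil markers (left) and 21 myeloid and dendritic markers (right) in the 4 groups, with circles for replicate 1, triangles for replicate 2 and lines at the mean. After commitment both sgStat5 libraries lie above both control libraries for the first list (720 and 656 against 525 and 508 CPM), and the groups overlap for the second.

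Other cytokine receptor chains moved in both directions. Of 19 tested, Il7r rose (log2 fold change 1.53) and Il2ra fell (-0.89) after commitment without the block. With it Il2rg, Il15ra and Il6st also rose, and Il2rb, Il4ra and Ifngr1 also fell. Before commitment Il7r rose (1.58) without the block, and with it Il6st also rose and Il2rb, Il2ra, Il4ra and Ifngr1 fell.

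Known STAT5 response genes were drawn up as a list after several were known to differ, so their counts are no independent evidence. Of 16, 1 rose (Bcl6, 2.80) and 5 fell after commitment without the block, namely Lta (-3.09), Socs2 (-2.72), Bcl2 (-1.76), Il2ra (-0.89) and Pim1 (-0.57). With the block 2 rose and 12 fell. These stand beside -3.24 for Lilrb4a, -3.26 for Lilr4b and -1.87 for Csf2rb. Before commitment Lta fell without the block (-3.26, edgeR adjusted p = 0.0382), and 2 genes rose and 9 fell with it. The list's median log2 fold change was -0.82 after commitment and -0.58 before it.

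Over the 8 libraries, the genes whose log2 CPM ran most like Csf2rb were Dad1 (Pearson r = 0.992), Rbpj (0.989), Rhoq (0.986), Esyt1 (0.982) and Aldh18a1 (0.981), of 10134 genes ranked. Rbpj encodes the DNA-binding factor of Notch signalling. Csf2rb2 ranked 15th for Csf2rb (r = 0.969), Lilr4b 335th (0.876) and Lilrb4a 1304th (0.729), while Csf2ra (-0.796) and Il3ra (-0.721) ran the other way. Dad1 had 54.0 and 58.2 CPM in post-commitment sgStat5 against 68.9 and 74.2 CPM in post-commitment control libraries, a far narrower range than that of Csf2rb.

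For Lilrb4a, genes among the most alike were Tnfrsf18 (0.985), which encodes the receptor GITR, Tnfsf11 (0.983), which encodes RANKL, Prkch (0.982) and Gm15663 (0.982). Tnfsf11 had 11.5 and 15.1 CPM in post-commitment sgStat5 against 67.1 and 60.0 CPM in post-commitment control libraries, and 8.63 and 11.5 CPM in pre-commitment sgStat5 against 35.9 and 34.1 CPM in pre-commitment control libraries. Lilr4b ranked 65th for Lilrb4a (r = 0.921). These correlations describe libraries that share groups, replicate numbers and guide arms, and carry no test.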

How the data were processed

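RNA-seq tables of 8 libraries were used as deposited. Per the file headers, HOMER analyzeRepeats made the authors' deposited counts, unadjusted tags in exons of a single RefSeq transcript for each gene (mm10), and the deposited FPKM values. In the submitters' processing notes the tools are STAR 2.4.0, RSEM 1.2.25 and bcl2fastq 1.8.4. The total of 22146490 to 31209177 counts per library bounds precision, and counting floors cover counting error only.

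The counts went into edgeR 4.0.16 (R 4.3.3; filterByExpr, TMM, two-sided quasi-likelihood F-test, 1 mean per group, all 8 libraries). Benjamini-Hochberg adjustment covered all 13775 genes, with a threshold of 0.05. The SE of a log2 fold change is its size over the square root of F. The fit was tested on simulated data. Alternatives were the replicate number as a block, DESeq2 1.42.0, RLE scaling, no filter or a filter of at least 5 CPM in 2 libraries, the 2 groups alone, each library left out, and limma 3.58.1 on log2(FPKM + 1) or log2(FPKM + 0.1).

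The members and lists were chosen with earlier results of these data known. The rule named all members, genes within 200 kb of one, list genes past the threshold with or without the block, and the 5 genes most correlated with Csf2rb and with Lilrb4a (mean CPM of at least 5, log2 CPM with a prior count of 2). A gene that this rule names for Lilrb4a is not reported here. Some list genes that passed only between gates are given as counts, and list genes named although they did not pass were chosen after their values were seen.

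Separate cultures or animals are not stated for the replicates, so the p-values cover only the spread between these libraries. Same-numbered libraries deviated together (6 correlations between groups, 0.421 to 0.578). Xist reached at most 0.359 CPM in replicate 1 and 1388 to 2345 CPM in replicate 2. The number was therefore taken to pair libraries. Windows of 50 bases were matched to GENCODE M21 transcripts.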

Additional observations from a re-analysis of the deposited data

Results flagged for a closer look

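Lilr4b differed between the gates in opposite directions in the 2 guide arms. In sgStat5 cells it had 0.619 and 1.43 CPM after commitment against 1.57 and 2.18 CPM before it, and in control cells 8.96 and 10.9 CPM after commitment against 4.13 and 4.89 CPM before it. The libraries of the 2 gates did not overlap in either arm. The share of all tested genes with such opposite gaps was not counted, so this pattern is a description only. The difference between the arms was -2.0 on the log2 scale (SE 0.61), given as a description. It did not lie past the threshold without or with the replicate number as a block. For Lilrb4a the gates kept 1 direction in both arms, with 0.48 in sgStat5 and 1.28 in control cells, but with the pair's counts summed the value in sgStat5 cells was -0.24. Lilr4b took 35 and 46.5% of the pair's counts in post-commitment sgStat5, 42.5 and 43.1% in post-commitment control, 64.8 and 65.6% in pre-commitment sgStat5 and 51.5 and 41.0% in pre-commitment control libraries. Since the 2 genes share sequence, these shares depend on how shared reads were assigned. Groups of 2 libraries are too small to single out a library.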

How the results depend on the processing

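With the replicate block 1 member passed before commitment (Lilrb4a, also 1 with DESeq2 and 1 with no filter on low counts), against 0 without the block. The block gave 2 calls between gates in sgStat5 cells (1 with DESeq2) and 2 in control cells, against 0 in each without it, and changed no other call on a member. After commitment the count of 3 fell to 0 in a fit of the 2 groups alone and ranged from 0 to 2 when each library was left out in turn, while limma on FPKM gave 2. Leaving out libraries kept the other 4 counts at 0. No sign of a beta chain or of a Lilrb4-locus gene turned in the comparisons of sgStat5 with control cells under any alternative run. The stricter filter removed Csf2rb2 and Il5ra, and a fit of 2 groups could not give the difference between gates. The cause of these changes was not tested. On log2(FPKM + 1) folds were smaller, such as -2.12 for Lilrb4a after commitment, since a pseudocount shrinks low genes. Summing each paralog pair turned the sign of 1 value, Lilrb4a between gates in sgStat5 cells (-0.24 against 0.48). Depth limits Csf2rb2, Lilrb4a and Lilr4b most, with lowest counts of 18, 19 and 14 in a library.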
